A study of Mus musculus with 9 samples.

Results

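The Schlafen genes *Slfn1*, *Slfn2*, *Slfn3*, *Slfn4*, *Slfn5*, *Slfn8* and *Slfn9* were followed through bulk RNA-seq of mouse intestinal organoids, as 7 of 54838 genes with a deposited value. The family was chosen by its readout, because *Slfn2* and *Slfn4* were among the largest rises in organoids labelled 4-OHT. The values of 4-OHT DMSO against EtOH DMSO are therefore described below without a test. Organoids of C57BL/6 background were grown from intestinal tissue of 2 to 4 month old mice with the alleles *Vil-CreERT2* and *Mettl3* fl/fl. All groups carry both alleles: a tamoxifen-activated Cre driven by the Villin promoter, which is active in intestinal epithelium, and loxP sites in *Mettl3*, which encodes the catalytic subunit of the m6A RNA methyltransferase. Organoids received the solvent ethanol (EtOH) or 500 nM 4-hydroxytamoxifen (4-OHT) for 2 days. Dimethyl sulfoxide (DMSO) or necrostatin-1 (Nec-1, an inhibitor of the kinase RIPK1) was present for 5 days. The group 4-OHT Nec-1 had 1 library, and each of the other groups (EtOH DMSO, 4-OHT DMSO and EtOH Nec-1) had 2. Organoids without the Cre or without the floxed allele were not analysed here, so the effect of 4-OHT itself and that of excision cannot be told apart. Nothing in the labels says that libraries of a group came from separate cultures or mice, so p-values measure only the spread between these libraries, which may be technical.

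Values are FPKM, fragments scaled for transcript length and for the mapped fragments of the library, so levels can be set side by side between genes. Between libraries they are compared as deposited, and calls over all genes moved with the scaling, as given below. Library sums ran from 450207 to 498712, with 11559 to 12038 genes at or above 1 FPKM. Fragment counts are not known, so no counting error could be given for a low value. *Mettl3* ranged from 2.41 to 2.71 FPKM over the 4 EtOH libraries and from 3.36 to 4.14 over the 3 libraries labelled 4-OHT. It was not lower in any library labelled 4-OHT, and a value over the whole gene cannot show the excision, so every direction below rests on the labels. Epithelial markers were high throughout, with *Krt8*, an epithelial keratin, at 1152 to 1771 FPKM. In bulk RNA, fewer cells of a type and less RNA per cell cannot be told apart.

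Schlafen proteins share a core domain, and several are known to cleave tRNA or to hold back viral protein synthesis. Interferons induce many of the genes: type I interferon acts through interferon-stimulated response elements (ISREs) in promoters. The mouse proteins come in short forms (*Slfn1*, *Slfn2*), intermediate forms (*Slfn3*, *Slfn4*) and long forms with a helicase-like part (*Slfn5*, *Slfn8*, *Slfn9*). *Slfn2* is best known for keeping T cells and monocytes quiescent, *Slfn4* for its expression in myeloid cells, and *Slfn3* for work on gut epithelial differentiation in rodents.

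The mouse family sits in 1 cluster. In the RefSeq annotation of GRCm38.p6, the genes from *Slfn5os* to *Slfn14* span chr11:82942341-83286726, which is 344386 bases. *Slfn5* lies at chr11:82951349-82964850, *Slfn9* at chr11:82974316-82991830, *Slfn8* at chr11:83002125-83020810 and *Slfn2* at chr11:83065112-83070678. Beyond them come *Slfn1* at chr11:83116820-83122670, *Slfn4* at chr11:83175172-83190216 and *Slfn3* at chr11:83191330-83215154. *Slfn9* and *Slfn8* are on the minus strand and the other members on the plus strand. Some annotated genes overlap members. *Slfn5os* overlaps *Slfn5* and was listed at 0 in every library. The lncRNA *Gm20234*, on the opposite strand within *Slfn2*, stayed at or below 0.914 FPKM, and *Gm51911*, which overlaps *Slfn1*, had no value here. The library kit named in the labels does not mark strand, so reads of such partners cannot be told apart.

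The bases before the annotated starts are shown for the members on which the results turn, and for *Slfn8* because its promoter is close to that of *Slfn9*. Each run is the 250 bases before a RefSeq start (GRCm38.p6), read 5′ to 3′ on the strand of the gene. Capitals mark matches to the core of the ISRE, searched as GAAANNGAA on both strands. *Slfn2* (chr11:83064862-83065111, plus strand) and *Slfn4* (chr11:83174936-83175185, plus strand) held no match, which says only that these letters are not in this window.
Slfn2: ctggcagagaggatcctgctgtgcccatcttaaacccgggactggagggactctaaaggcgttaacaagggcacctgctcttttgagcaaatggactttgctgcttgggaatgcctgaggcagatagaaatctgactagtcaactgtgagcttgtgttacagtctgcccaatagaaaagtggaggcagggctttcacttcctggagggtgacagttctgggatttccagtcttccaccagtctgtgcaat
Slfn4: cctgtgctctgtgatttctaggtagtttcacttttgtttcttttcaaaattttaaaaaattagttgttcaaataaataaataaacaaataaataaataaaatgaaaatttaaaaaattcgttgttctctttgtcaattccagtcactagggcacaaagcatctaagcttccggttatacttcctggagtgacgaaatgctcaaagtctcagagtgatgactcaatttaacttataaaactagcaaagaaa
Slfn9 (chr11:82991831-82992080, minus strand): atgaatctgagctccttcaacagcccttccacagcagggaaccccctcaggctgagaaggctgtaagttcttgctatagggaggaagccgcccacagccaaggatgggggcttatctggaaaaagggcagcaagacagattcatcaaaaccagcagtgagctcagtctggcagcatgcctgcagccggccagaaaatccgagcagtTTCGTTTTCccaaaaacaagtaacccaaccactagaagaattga
Slfn8 (chr11:83020811-83021060, minus strand): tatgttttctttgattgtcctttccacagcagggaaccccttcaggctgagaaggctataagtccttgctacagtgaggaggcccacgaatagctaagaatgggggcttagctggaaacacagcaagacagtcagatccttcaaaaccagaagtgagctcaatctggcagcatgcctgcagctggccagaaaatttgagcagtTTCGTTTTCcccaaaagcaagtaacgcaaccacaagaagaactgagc
The *Slfn9* and *Slfn8* windows carried the same letters, TTCGTTTTC, which match on the reverse strand, at bases 44 to 36 before the start of *Slfn9* and 47 to 39 before that of *Slfn8*. *Slfn5* held GAAAAAGAA, next to a run of adenines, at bases 155 to 147 before a start that lies within its annotated span, and TTCTCTTTC at bases 132 to 124. Thus 3 of the 7 members had a match, and 7.16% of 27025 promoter windows of the same length did. The core of the gamma-activated site, searched as TTCNNNGAA, was in 0 of the 7 members and in 7.18% of all windows. Letters of both motifs can overlap in a sequence. A match is a description of the letters and not of a bound site.

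Aligned end to end, the *Slfn8* and *Slfn9* windows were identical in 80.2% of 262 columns, and the other 20 pairs of members in 45.5% to 53.4%. *Slfn8* and *Slfn9* are close copies of each other, and reads that map to both could be split between them in the authors' quantification. Their separate levels are therefore uncertain.

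Under EtOH, *Slfn9* was the main Schlafen transcript of these organoids. The EtOH DMSO libraries gave it 3.45 and 4.68 FPKM, and the EtOH Nec-1 libraries 3.58 and 2.44. That was 69.8% to 92.5% of the summed FPKM of the 7 members in each of the 4 EtOH libraries. *Slfn2* came to 0.280 and 0.201 FPKM with DMSO and to 0.175 and 0.496 with Nec-1. *Slfn4* was close to it, at 0.121 and 0.355 with DMSO and 0.117 and 0.415 with Nec-1. In each group the ranges of *Slfn2* and *Slfn4* overlapped, so their order was not settled. *Slfn5* lay between 0 and 0.0525 FPKM, *Slfn8* between 0 and 0.0758 and *Slfn1* between 0 and 0.0892, and *Slfn3* was listed at 0 in all 4 libraries.

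In the libraries labelled 4-OHT DMSO, *Slfn2* and *Slfn4* had become the most abundant members. *Slfn2* stood at 38.9 and 59.3 FPKM, against 0.280 and 0.201 in EtOH DMSO, a ratio of group means of 204. *Slfn4* stood at 30.6 and 56.6 FPKM, against 0.121 and 0.355, a ratio of 184. These ratios rest on very low denominators: the lowest 4-OHT library over the highest EtOH library gave 139 for *Slfn2* and 86.3 for *Slfn4*. On the log2(FPKM + 1) scale, which shrinks changes from such low levels, the difference was 5.31 for *Slfn2* and 5.12 for *Slfn4*. They ranked 3 and 4 of the 12702 genes tested, those that reached 1 FPKM in 2 or more libraries. This is how they were chosen, and it supports nothing further.

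**Figure D1:**
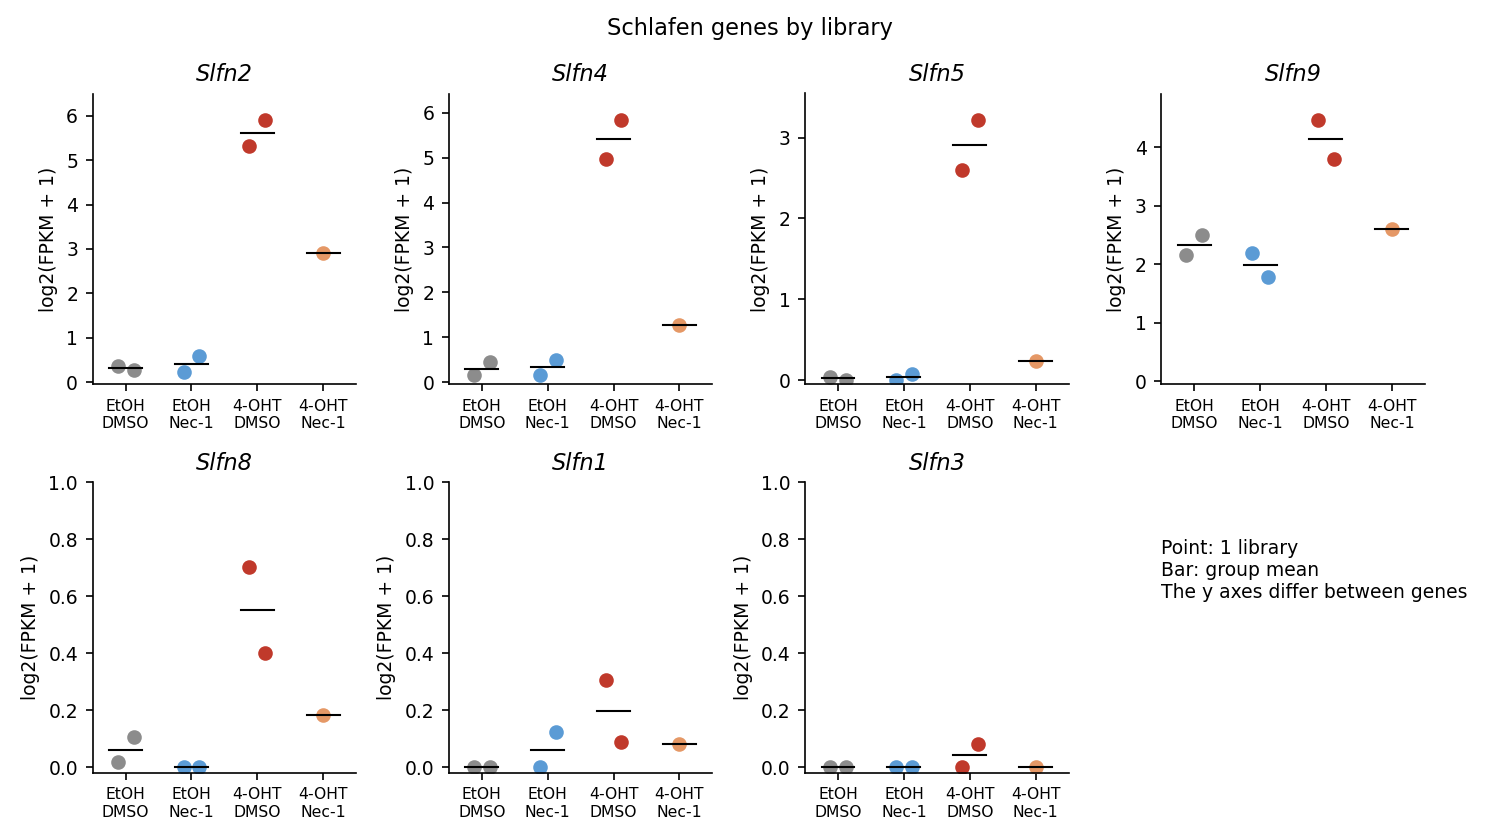
FPKM of the 7 Schlafen genes on the log2(FPKM + 1) scale, with 1 panel per gene and 1 point per library in the 4 groups; bars are group means and y axes differ between genes. Both 4-OHT DMSO libraries lie above all EtOH libraries for *Slfn2*, *Slfn4*, *Slfn5*, *Slfn9* and *Slfn8*, and the 4-OHT Nec-1 library lies between them and the EtOH libraries.

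The long members followed at lower levels. *Slfn5*, known as a repressor of interferon-dependent transcription in human cells, was at 5.07 and 8.34 FPKM in 4-OHT DMSO and at 0.0318 and 0 in EtOH DMSO (log2 difference 2.89). *Slfn9* was at 21.2 and 12.9 FPKM in 4-OHT DMSO, against 3.45 and 4.68, a ratio of means of 4.19 and a log2 difference of 1.80. Of these 4 members *Slfn9* had the highest EtOH level and the smallest ratio, and its 4-OHT and EtOH libraries did not overlap. *Slfn8* was at 0.625 and 0.320 FPKM, above 0.0123 and 0.0758 in EtOH DMSO. *Slfn1* was at 0.234 and 0.0621 FPKM, where EtOH DMSO was listed at 0. *Slfn3*, the member studied in gut epithelium, was listed at 0 in 6 libraries and at 0.0579 in the second 4-OHT DMSO library. Both 4-OHT DMSO libraries exceeded both EtOH DMSO libraries for 6 of the 7 members, as they did for 26.6% of the 28195 genes above 0 in at least 1 library. In the fit across all genes 24.5% were called higher (limma adjusted p under 0.05). Since this contrast chose the members, their calls are not given, and nothing is read from the 6 of the 7.

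*Slfn2*, *Slfn4* and *Slfn5* reached 1 FPKM only in libraries labelled 4-OHT, *Slfn5* only in those of 4-OHT DMSO. They therefore passed the filter on low values through the group in which they were high. *Slfn9* reached 1 FPKM in all 7 libraries, and *Slfn1*, *Slfn3* and *Slfn8* in none, so that 4 of the 7 members could be tested.

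Together the 7 members summed to 3.49 to 5.31 FPKM in the EtOH libraries and to 96.6 and 138 in 4-OHT DMSO. In 4-OHT DMSO *Slfn2* made up 40.2% and 43.1% of that sum, *Slfn4* 31.7% and 41.2%, and *Slfn9* 21.9% and 9.36%. The sum in 4-OHT Nec-1 was 13.4 FPKM, of which *Slfn2* was 48.6%, *Slfn9* 38.1% and *Slfn4* 10.6%. So *Slfn9* led in every EtOH library and *Slfn2* in every library labelled 4-OHT.

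**Figure D2:**
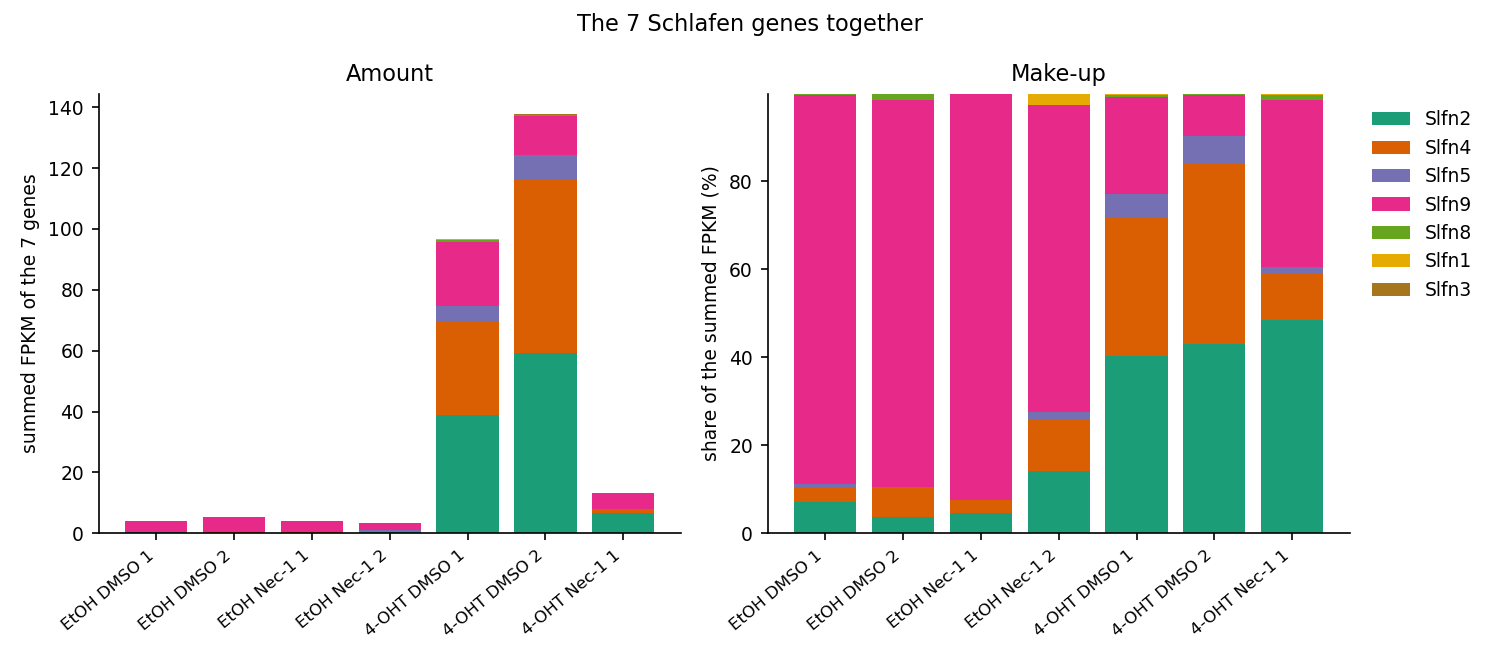
Left, summed FPKM of the 7 Schlafen genes in each library, stacked by gene; right, the same as a percentage of the sum. *Slfn9* fills 69.8% to 92.5% of the EtOH bars, whereas *Slfn2* is the largest part of the 3 bars labelled 4-OHT.

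The order of the members was the same in both libraries of 4-OHT DMSO, but their levels differed in opposite directions. *Slfn2*, *Slfn4* and *Slfn5* were higher in the second library than in the first, by ratios of 1.53, 1.85 and 1.65. *Slfn9* and *Slfn8* were lower in the second library, with ratios of 0.608 and 0.512. The median ratio was 0.993 over 12011 genes that averaged 1 FPKM or more in the 4-OHT libraries and were above 0 in both. Among 53 interferon-stimulated genes listed for comparison, 49 had such a mean, and 48 of these were higher in the second library, with a median ratio of 1.31. The exception was *Ifit2*, at 4.91 and 0.472 FPKM, which is named here because it stood alone. With 1 difference between 2 libraries, this split of the family is a description.

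Whether the members differed with 4-OHT when Nec-1 was present was tested in 3 libraries that did not enter the contrast that chose the family. The filter and part of the estimate of spread did draw on the 4-OHT DMSO libraries. *Slfn2* rose: its FPKM was 6.51 in 4-OHT Nec-1, against 0.175 and 0.496 in EtOH Nec-1, a ratio to the mean of 19.4. The log2 difference was 2.50 (SE 0.28, 95% interval 1.80 to 3.20, limma adjusted p = 0.0064 over all 12702 genes). Under the alternatives in which it was tested, the adjusted p of *Slfn2* lay between 0.0041 and 0.0413, and no alternative ended the call. It was 0.0259 with no filter and 0.0126 with only the libraries of the comparison, while with 1 FPKM asked of every library *Slfn2* was not tested. With a pseudocount of 0.1 its log2 difference was 4.03. The test assumes that the single 4-OHT Nec-1 library varies as the libraries of the other groups do.

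*Slfn4* was at 1.42 FPKM in 4-OHT Nec-1, above 0.117 and 0.415 in EtOH Nec-1, but the difference did not pass the threshold. Its log2 difference was 0.95 (SE 0.38, 95% interval 0.0049 to 1.89, limma adjusted p = 0.132). The call changed with the libraries in the fit. Without 4-OHT DMSO replicate 1 or replicate 2, or with only the libraries of the comparison, the log2 difference stayed at 0.95. What changed there was the estimate of spread and the adjustment over genes. In the main fit that spread included the gap between the 4-OHT DMSO libraries, which was 0.866 log2 units for *Slfn4*. The gap did not enter those alternatives, and its part in the change was not tested. The limma adjusted p was 0.0354 without 4-OHT DMSO replicate 1, 0.0360 without replicate 2 and 0.0465 with only the libraries of the comparison. It was 0.340 without EtOH Nec-1 replicate 1, where the log2 difference was 0.78. With a pseudocount of 0.1 the difference was 2.19 (limma adjusted p = 0.0852).

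*Slfn9* was at 5.10 FPKM in 4-OHT Nec-1 and at 3.58 and 2.44 in EtOH Nec-1 (log2 difference 0.62, SE 0.34, 95% interval -0.22 to 1.46, limma adjusted p = 0.238). For *Slfn5* the values were 0.174 FPKM against 0 and 0.0525, a log2 difference of 0.19 (95% interval -0.49 to 0.88, limma adjusted p = 0.641) that was 1.15 with a pseudocount of 0.1. Neither passed the threshold, and the interval of *Slfn9* includes the 0.95 measured for *Slfn4*. Among the members below the filter, *Slfn8* was at 0.136 FPKM in 4-OHT Nec-1 and listed at 0 in both EtOH Nec-1 libraries. *Slfn1* was at 0.0578 FPKM, within the 0 and 0.0892 of EtOH Nec-1, and *Slfn3* was listed at 0 in all 3.

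In this comparison 1 of the 4 members tested was called higher, and 13.9% of all genes tested were. Because *Slfn2*, *Slfn4* and *Slfn5* passed the filter through libraries labelled 4-OHT, nothing is read from this count. Unadjusted, p was under 0.05 for 2 of the 4, from which nothing is read either. The 4-OHT Nec-1 library lay above both EtOH Nec-1 libraries for 5 of the 7 members and for 40.9% of the 28195 genes above 0 in at least 1 library. Over all genes tested, 1771 were called higher and 910 lower, but with each library centred on its median 1264 were higher and 1492 lower. The 2681 calls fell to 551 without EtOH Nec-1 replicate 1 and to 442 without replicate 2. *Slfn2* kept its call under that centring, with a log2 difference of 2.36.

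**Figure D3:**
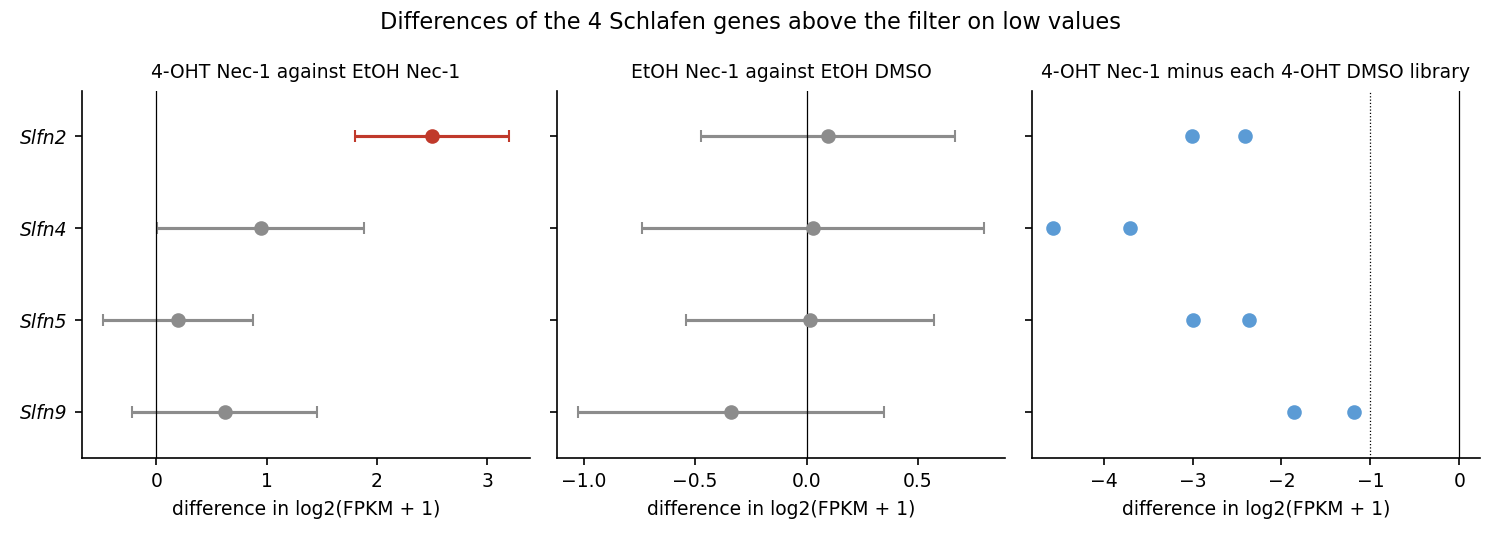
Differences in log2(FPKM + 1) of the 4 Schlafen genes above the filter; points with 95% intervals (left and middle, limma) or 1 point per 4-OHT DMSO library (right, no test, dotted line at -1), with red marking a limma adjusted p under 0.05. Only *Slfn2* in 4-OHT Nec-1 against EtOH Nec-1 is red, at 2.50, and every point on the right lies below -1.

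With Nec-1 alone, in EtOH organoids, no change was detectable in the 4 members tested. This comparison shares the EtOH DMSO libraries with the contrast that chose the family. The log2 difference of EtOH Nec-1 from EtOH DMSO was 0.097 for *Slfn2* (95% interval -0.47 to 0.67), 0.029 for *Slfn4* (-0.74 to 0.80), 0.014 for *Slfn5* (-0.54 to 0.57) and -0.34 for *Slfn9* (-1.03 to 0.35). Of the 4 members tested, 0 were called by limma, with adjusted p between 0.628 and 0.989, and 0 had an unadjusted p under 0.05, while 0.220% of all genes were called. The interval of *Slfn9* leaves room for a fall of 1.03 log2 units, and that of *Slfn4* for a rise of 0.80. *Slfn2*, *Slfn4* and *Slfn5* stood at or below 0.355 FPKM in EtOH DMSO, near the floor of this scale. A fall of these members with Nec-1 could therefore not be assessed. Below the filter, *Slfn8* was at 0.0123 and 0.0758 FPKM in EtOH DMSO and listed at 0 in both EtOH Nec-1 libraries, so that the groups did not overlap, at levels under 0.1 FPKM.

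With Nec-1 in organoids labelled 4-OHT, each of the abundant members was lower. These values have 1 library on one side and share the 4-OHT DMSO libraries in which the family was chosen for being high, so they are given with no test. *Slfn4* went from 30.6 and 56.6 FPKM to 1.42, which is 3.26% of the DMSO mean and log2 differences of -3.71 and -4.57 from the DMSO libraries. *Slfn5* went from 5.07 and 8.34 FPKM to 0.174, or 2.60% of the mean, with differences of -2.37 and -2.99. The mean of these differences, -2.68, was -4.59 with a pseudocount of 0.1. *Slfn2* went from 38.9 and 59.3 FPKM to 6.51, or 13.3%, with differences of -2.41 and -3.01. A smaller part was missing for *Slfn9*, which went from 21.2 and 12.9 FPKM to 5.10, or 29.9%, with differences of -1.86 and -1.19. The percentages do not subtract the EtOH level, which for *Slfn9* was 3.58 and 2.44 FPKM in EtOH Nec-1. They are therefore not the part of the rise that remained, and do not rank the members by it. For *Slfn8* 28.7% remained and for *Slfn1* 39.0%, both at levels under 1 FPKM.

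Of the 7 members, 4 averaged 1 FPKM or more over the 3 libraries labelled 4-OHT, and all 4 lay at least 1 log2 unit below each DMSO library. Of the 12036 genes with such an average, 1.21% did, and 50.6% lay below each DMSO library by any amount. The members were picked for their height in 4-OHT DMSO, so their count cannot be weighed against these shares.

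The balance of *Slfn2* and *Slfn4* was not the same with Nec-1. In 4-OHT DMSO, *Slfn4* was at 0.789 and 0.955 times the FPKM of *Slfn2*, near parity. In the 4-OHT Nec-1 library it was at 0.219 times, since 6.51 FPKM of *Slfn2* stood against 1.42 of *Slfn4*. In the EtOH libraries the ratio ran from 0.431 to 1.77 at levels below 0.5 FPKM, where it carries little. The shift rests on 1 library.

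**Figure D4:**
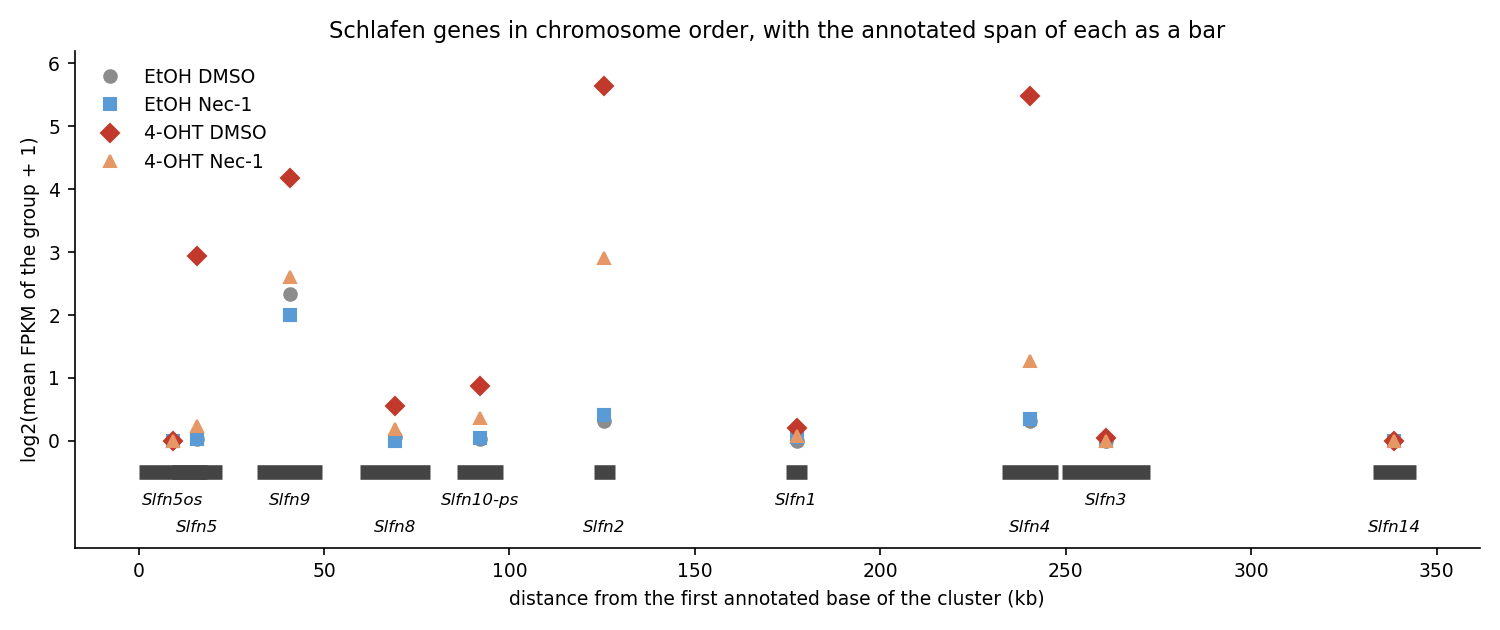
Group means of the Schlafen genes as log2(mean FPKM + 1), placed by the middle of each annotated span along the cluster (kb from its first annotated base); dark bars are the spans and symbols the 4 groups. The 3 tallest 4-OHT DMSO values, at *Slfn2*, *Slfn4* and *Slfn9*, are separated by *Slfn8*, *Slfn10-ps* and *Slfn1*. The group means of *Slfn8* and *Slfn1* stay under 0.5 FPKM, and that of *Slfn10-ps* reaches 0.836 in 4-OHT DMSO.

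Members next to each other could differ widely in level. *Slfn4*, at 43.6 FPKM as the mean of 4-OHT DMSO, is followed directly by *Slfn3*, at 0.0289. *Slfn10-ps*, a Schlafen pseudogene between *Slfn8* and *Slfn2*, came to 0.608 and 1.06 FPKM in 4-OHT DMSO, to 0.293 with Nec-1 and to at most 0.0369 under EtOH, and did not pass the filter. *Slfn14* was listed at 0 in every library. *Slfnl1*, a Schlafen-like gene outside the cluster, had a mean of 0.0621 FPKM in 4-OHT DMSO. The 5 nearest genes on each side of the cluster were read as well. Of these 10 neighbours, 6 passed the filter, with log2 differences from -0.83 to 0.59 between 4-OHT DMSO and EtOH DMSO and from -0.48 to 0.66 between 4-OHT Nec-1 and EtOH Nec-1. By limma 0 of these 6 were called in the latter comparison, and 1 had an unadjusted p under 0.05. Of all 12702 genes tested, 2681 were called there, and with 6 neighbours nothing is read from either count.

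The interferon genes around the family were looked at from lists. In 4-OHT Nec-1 against EtOH Nec-1, 31 of the 48 interferon-stimulated genes tested were called higher and 0 lower by limma, with a median log2 difference of 1.03, beside 0.076 for all genes. Unadjusted, 1 was lower with a p under 0.05. Of all genes tested, 13.9% were called higher. Many of the list, such as *Oas2* and *Usp18*, reached 1 FPKM only in libraries labelled 4-OHT, and passed the filter through them. The 31 of 48 therefore cannot be weighed against the share of all genes. With 1 FPKM asked of every library, 24 of the list were tested and 15 of these called higher. The 31 became 12 without EtOH Nec-1 replicate 1 and 10 without replicate 2. *Isg15*, a ubiquitin-like modifier, was at 27.3 FPKM in 4-OHT Nec-1 and at 0.557 and 1.33 in EtOH Nec-1 (log2 difference 3.89, SE 0.34, limma adjusted p = 0.0042). *Ifit1*, which binds foreign RNA, rose by 2.40 (SE 0.26, limma adjusted p = 0.0060). *Stat2* and *Irf9*, whose products act on ISREs, rose as well, by 1.60 (limma adjusted p = 0.0241) and 2.05 (limma adjusted p = 0.0033). Leaving out either EtOH Nec-1 library ended the call of *Stat2* (limma adjusted p = 0.0920 and 0.104), as did the absence of a filter on low values (limma adjusted p = 0.0819). *Irf7*, a transcription factor that amplifies the interferon response, rose by 1.83 (limma adjusted p = 0.0074). Of the 15 interferon receptors and signalling genes, 5 were called higher and 1 lower, and 2 higher without either EtOH Nec-1 library. None of the 11 interferon ligand genes listed reached 1 FPKM in any library: 6 were listed at 0 throughout, and they summed to at most 0.352 FPKM.

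The part left with Nec-1 differed among these genes as it did among the Schlafen genes. For the 49 interferon-stimulated genes that averaged 1 FPKM or more in the 4-OHT libraries, the 4-OHT Nec-1 level was 2.48% to 90.6% of the 4-OHT DMSO mean, with a median of 20.6%. By the same fold as above, 36 of these 49 lay at least 1 log2 unit below each DMSO library. *Slfn4*, at 3.26%, and *Slfn5*, at 2.60%, lay near the low end of that range, with *Trim30a* at 2.48% and *Gbp3* at 3.06%. *Slfn2*, at 13.3%, was below its median and *Slfn9*, at 29.9%, above it. Here too the EtOH level is not subtracted, and it differed among these genes, so the order is not that of the rise that remained. *Irf9* was not lower with Nec-1, at 8.56 FPKM against 7.72 and 8.15. In EtOH Nec-1 against EtOH DMSO limma called 0 of the 48, and 5 had an unadjusted p under 0.05. The share of all genes at that unadjusted threshold is not given, so nothing is read from the 5.

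**Figure D5:**
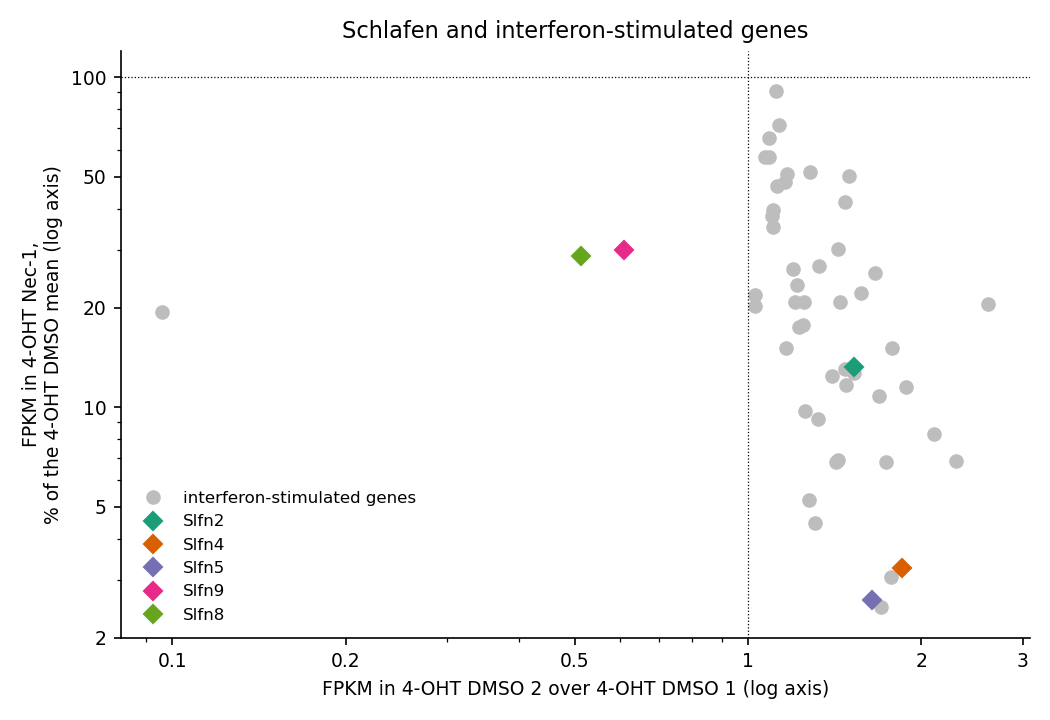
Ratio of FPKM in the second to the first 4-OHT DMSO library (x, log axis) and FPKM in 4-OHT Nec-1 as a percentage of the 4-OHT DMSO mean (y, log axis) for 49 interferon-stimulated genes (grey) and 5 Schlafen genes (coloured). *Slfn2*, *Slfn4* and *Slfn5* fall among the grey points right of 1, while *Slfn9* (0.608) and *Slfn8* (0.512) lie left of 1, where *Ifit2* is the single grey point.

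Genes whose pattern was most like that of each tested member were ranked by Pearson's r of log2(FPKM + 1) over the 7 libraries, and many genes shared each pattern. At r of 0.95 or more stood 841 genes with *Slfn2*, 266 with *Slfn4*, 168 with *Slfn5* and 211 with *Slfn9*. The values are therefore descriptions, and they draw on the libraries of the contrast that chose the family. Nearest to *Slfn2* were *Irgm1*, an interferon-inducible GTPase (r = 0.999), *Isg15*, *Ddx60*, *Arhgap45* and *mt-Tf*, a mitochondrial tRNA gene. *Slfn4* was nearest to *Ifi47*, *Gm5431*, the antiviral GTPases *Mx2* and *Mx1*, and *Trim12a*, all at r of 0.998 to 0.999. *Slfn5* was nearest to *Trim30a* (r = 0.9997), *Gbp3*, *Trim12a*, *Gm12250* and *H2-T22*. *Slfn9* was nearest to *Srgap2* (r = 0.995), *Large2*, *Cenpb*, *Cdk11b* and *Bhlha15*, of which 0 were on the interferon list. For each of the other members 2 of 5 were, and this difference was not tested. The list is a selection, so a gene outside it is not thereby unrelated to interferon. The ranges of the genes nearest to *Slfn9* were narrow, such as 0.717 to 2.11 FPKM for *Srgap2*. Between members, r was 0.994 for *Slfn4* with *Slfn5*, 0.971 for *Slfn2* with *Slfn4*, and 0.911 to 0.926 for *Slfn9* with the other 3.

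Since *Slfn4* and *Slfn2* are known from blood cells, markers of such cells were read in the same libraries. *Ptprc*, the pan-leukocyte marker CD45, was at or below 0.0497 FPKM in every library. The 17 T and B lymphocyte markers summed to 0.418 to 1.92 FPKM, most of it *Cd79b*, at most 1.63. The 17 myeloid markers summed to 8.12 to 10.4 FPKM in the EtOH libraries and to 24.1 to 31.5 in those labelled 4-OHT, and 3 of them were higher in every 4-OHT library than in any EtOH library, as were 17.5% of the 28195 genes above 0 in at least 1 library. Of the 5 that passed the filter, 3 were called higher by limma in 4-OHT Nec-1 against EtOH Nec-1 (median log2 difference 0.93) and 3 in 4-OHT DMSO against EtOH DMSO (median 1.64). Of all genes tested, 13.9% were called higher in the former comparison and 24.5% in the latter. The most abundant was *Cd14*, a lipopolysaccharide co-receptor, at 2.86 to 4.37 FPKM under EtOH and at 20.5, 16.9 and 11.0 in the libraries labelled 4-OHT. *Cd68* and *Mrc1* were also higher in every 4-OHT library. *Mrc1* was at 0.322 to 0.479 FPKM under EtOH, so it passed the filter only through libraries labelled 4-OHT. The 3 of 5 therefore cannot be weighed against the shares of all genes. The remaining markers that passed the filter, *Itgam* and *Lyz2*, were not. *Itgam* ran from 1.19 to 2.45 FPKM under EtOH, and the libraries labelled 4-OHT gave 0.315, 0.917 and 1.31, in the order used for *Cd14*. *Lyz2* overlapped where DMSO was present, at 0.634 and 0.237 FPKM under EtOH against 0.677 and 0.344 under 4-OHT. With Nec-1 it was at 2.52 and 1.55 under EtOH and at 2.63 under 4-OHT. Of the 17, 5 reached 1 FPKM in any library, and 2, *Itgax* and *S100a8*, were listed at 0 throughout. The part of the myeloid list in the Schlafen values was not tested. The 9 fibroblast markers summed to 0.900 to 1.80 FPKM, led by *Vim* at 1.08 or less. The 15 enterocyte markers, led by *Fabp1*, summed to 1236 to 1576 FPKM in the EtOH libraries and 1158 to 1349 in those labelled 4-OHT. The sums hide a shift among them: of the 14 tested, limma called 10 lower and 2 higher in 4-OHT DMSO against EtOH DMSO (median log2 difference -0.70) and 6 lower and 3 higher in 4-OHT Nec-1 against EtOH Nec-1 (median -0.45). Of all 12702 genes tested, 2120 were called lower and 3117 higher in the former comparison, and 910 lower and 1771 higher in the latter. *Fabp1* itself was highest in 4-OHT Nec-1, at 647 FPKM. The part of the enterocyte list in the Schlafen values was not tested.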

How the data were processed

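The authors deposited FPKM for 54838 mouse genes in 7 RNA-seq libraries. The submitters' processing notes list HISAT2 2.1.0, StringTie 1.3.3b and the build mm10 without their roles. In all, 2 further columns repeated other tables and were left out, and 0 columns were unmapped. The 2 CUT&Tag samples were not analysed here. limma 3.58.1 in R 4.3.3, with a mean-variance trend, was fitted to log2(FPKM + 1) of the 12702 genes that reached 1 FPKM in 2 or more libraries, with 1 mean per group and Benjamini-Hochberg adjustment over all of them (threshold 0.05). Other values came from Python 3.11.15, numpy 2.4.6, pandas 2.3.3 and matplotlib 3.10.9. The scripts were tested on simulated data. Relative depths, from the spacing of low FPKM, were 0.853 to 1.03 times that of the first library.

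The members and gene lists were chosen with earlier results of these data known. Named were the members, all other genes whose symbol starts with Slfn, the 5 genes most like each tested member, 5 interferon genes, *Mettl3*, and the most abundant gene of each cell type list. *Ifit2*, *Trim30a*, *Gbp3*, *Gm20234*, *Gm51911* and markers beyond the most abundant were named after their values were seen. *Ripk1* was a planned check: it lay at 3.37 to 4.03 FPKM in the EtOH libraries and at 7.84 to 8.32 in those labelled 4-OHT. Promoter windows are from RefSeq (GRCm38.p6), in which all 7 members had an entry. A planned comparison of protein sequences was not made, and 1 item is not reported here. Alternatives were pseudocounts of 0.1 and 0.25, other filters, no trend, 2 scalings, a replicate block, only the libraries compared and each library left out.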

Additional observations from a re-analysis of the deposited data

How the results depend on the processing

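*Slfn2* kept its direction and its call in 4-OHT Nec-1 against EtOH Nec-1 under all 14 alternatives in which it passed the filter, with log2 differences of 2.33 to 4.03. The number of members called there, 1 in the report, was 0 where 1 FPKM was asked of every library, since *Slfn9* alone was then tested, and 2 with only the libraries of the comparison. It was 1 to 2 when single libraries were left out, with *Slfn4* as the second member, and the cause was not tested. Under the replicate block it was also 2 (*Slfn4* log2 difference 1.19, limma adjusted p = 0.0456), 1617 in place of 2681 genes were called, and *Stat2* was no longer called (limma adjusted p = 0.0506, and 0.0819 with no filter). The replicate numbers do not mark a shared culture, and the deviations of same-numbered libraries correlated at only -0.040, 0.0065 and -0.012, so the block is no sign of pairing. Leaving out single libraries gave 442 to 3071 called genes, lowest without EtOH Nec-1 replicate 2, and 551 without replicate 1. The 31 of 48 interferon-stimulated genes called higher became 17 of 53 with no filter and 15 of 24 with 1 FPKM asked of every library. Of the 48, 10 to 34 were called higher when a library was left out, with 10 without EtOH Nec-1 replicate 2. In EtOH Nec-1 against EtOH DMSO the 28 called genes became 8 with no filter, 43 with upper quartile scaling, 79 with only its libraries and 9 to 75 when a library was left out; members called stayed at 0 under every alternative. Without single libraries, directions near 0 turned there (ranging up to 0.27 for *Slfn2*, 0.20 for *Slfn4* and 0.051 for *Slfn5*, all without EtOH Nec-1 replicate 1): *Slfn2* was at -0.077 without EtOH Nec-1 replicate 2, *Slfn4* at -0.14 without that library and -0.11 without EtOH DMSO replicate 1, and *Slfn5* at -0.023 without EtOH Nec-1 replicate 2 and -0.0083 without EtOH DMSO replicate 2. The untested differences kept their direction under every alternative run. With a pseudocount of 0.1 the differences of 4-OHT DMSO from EtOH DMSO grew to 7.15 for *Slfn2*, 7.04 for *Slfn4* and 5.85 for *Slfn5*, and those of 4-OHT Nec-1 from 4-OHT DMSO to -4.78 for *Slfn4* and -4.59 for *Slfn5*. Median centring moved the median log2 difference of all genes from 0.076 to -0.065 in 4-OHT Nec-1 against EtOH Nec-1 and from 0.077 to -0.080 in 4-OHT DMSO against EtOH DMSO. In the latter, 3117 genes higher and 2120 lower became 2213 and 3187. Levels under 1 FPKM, which include all those of *Slfn1*, *Slfn3* and *Slfn8*, cannot be ranked at an unknown depth.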
